A study of Caenorhabditis elegans with 12 samples.

Results

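Gene expression that varied between batches alike in Green and Red worms was examined in all 12 libraries of the study. The worms were Caenorhabditis elegans of strain KH2235, whose fluorescence reports the splicing of a ret-1 minigene. Whole bodies were taken at day 6 and separated by fluorescence into Green (mostly GFP) and Red (mostly mCherry), with 6 libraries each, and the libraries form 6 batches, each with 1 of either colour. The labels name the batch by a number and do not say what the libraries of a batch share, nor whether worms were pooled or grown in cultures of their own; p-values here thus refer to the spread among these libraries alone. Of 21982 genes in the table, 11327 averaged 50 normalized counts or more and were tested; the lowest mean kept was 50.001 and the highest left out was 49.965. Each group's mean was removed from log2(normalized count + 1), so that a value is a deviation from the Green or the Red mean, and batches were then compared over both groups. The batch is what the comparison asks about, and the Green against Red difference was fitted but is not reported.

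An adult C. elegans hermaphrodite is covered by a cuticle of collagens secreted by the epidermis, and its intestine digests food, makes yolk proteins and secretes lysozymes, saposin-like proteins and C-type lectins against microbes. A separate set of genes, among them many of the pals family, is known to be induced together by infection with intracellular pathogens. Genes of these tissues and programmes respond to food, microbes, temperature and moulting. In whole worms, fewer cells of a type and less RNA per cell cannot be told apart.

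Read totals, recovered from the normalized counts, ran from 30185155 in Green replicate 3 to 87141961 in Green replicate 6. Batch 6 was the deepest, with 87141961 reads in Green and 81537026 in Red, while no other library had more than 56195864. Red replicate 6 stood apart: it carried 31.5% of all squared deviations over the genes tested, against 4.1% to 8.3% for each of the other 11 libraries. Results are therefore given with all 12 libraries and again without batch 6. Whole-worm identity matched the labels in that 28 of 29 listed intestine genes in the table, 36 of 36 muscle genes and 44 of 44 germline genes were tested, while 4 of 52 sperm genes and 1 of 9 genes of male neurons and seminal fluid reached the mean of 50.

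The Green and the Red library of a batch deviated alike, strongly in batches 3 and 5 and weakly in batches 1 and 6. Across genes, which are not independent replicates, their deviations correlated by 0.18 in batch 1, 0.29 in batch 2, 0.52 in batch 3, 0.42 in batch 4, 0.52 in batch 5 and 0.25 in batch 6. Libraries of different batches had a mean of -0.07, a value that removing the group means ties to the others. In batches 3 and 5, 73.6% and 73.3% of genes lay on the same side of the mean in Green and in Red, against 47.9% in batch 1 and 53.5% in batch 6. The spread of the deviations over genes (SD) was 0.22 to 0.29 in the Green libraries and 0.25 to 0.31 in Red replicates 1 to 5, while Red replicate 6 had 0.60.

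**Figure D1:**
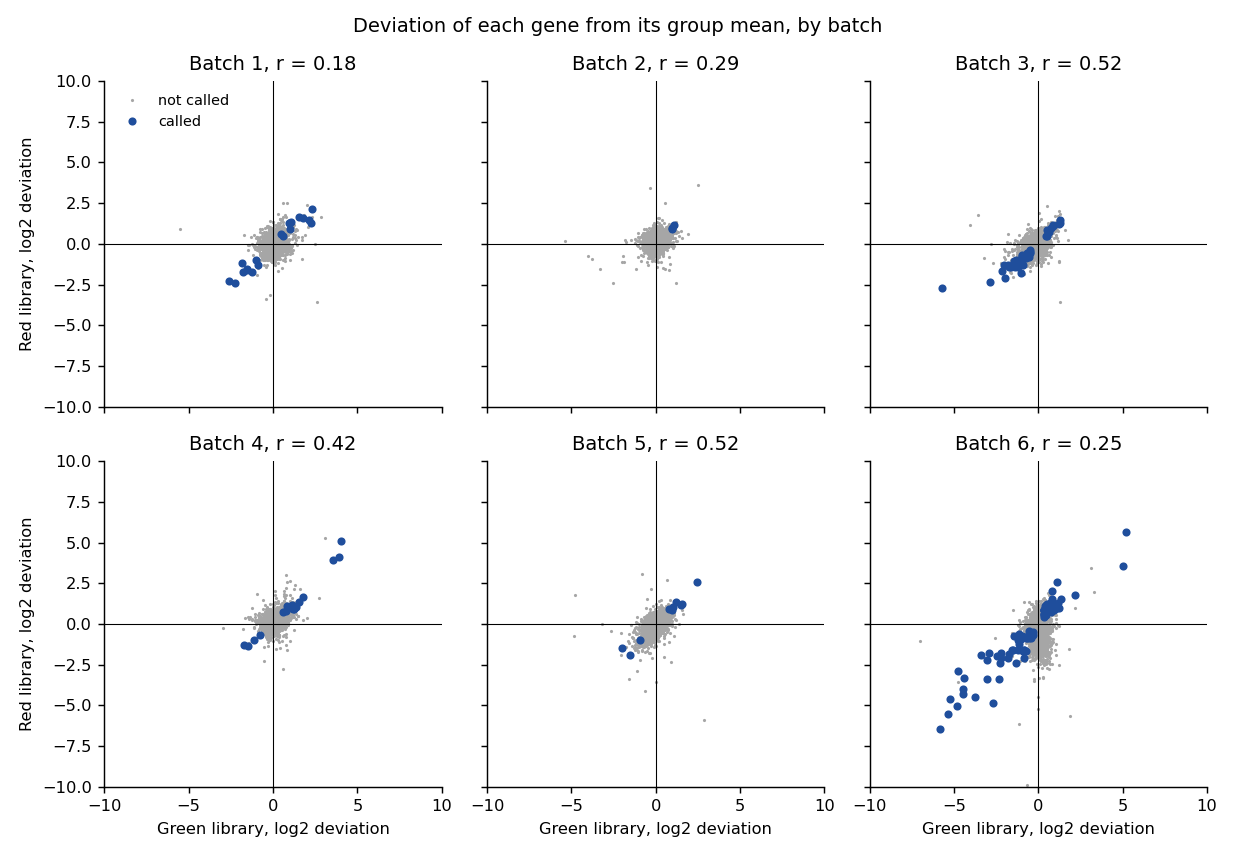
Deviation of each tested gene from its group mean (log2) in the Green library (horizontal axis) and the Red library (vertical axis) of each batch; blue points passed the test of that batch against the other 5, and r is the correlation across genes. The cloud is stretched along the diagonal in batches 3 and 5 (r = 0.52 in both), and in batch 6 it is stretched along the Red axis.

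The batch test found 72 genes that differed between batches (0.636% of 11327; limma F test of the batch term, Benjamini-Hochberg adjusted p under 0.05), and 1648 had an unadjusted p under 0.05. Without batch 6 the number was 473 (4.18%), and 44 genes passed in both. edgeR's quasi-likelihood test on the recovered reads called 65 genes with all libraries, 61 of them shared with limma, and 439 without batch 6, 394 of them shared; DESeq2 called 1013 with all libraries. The median share of a gene's variance that lay between batches (an intraclass correlation) was 0.286 over all genes and 0.932 over the 72 called, which the test chose, and without batch 6 it was 0.443 over all genes. Leaving out any 1 library of batches 1 to 5 gave 38 to 53 genes. Without Red replicate 6 the count was 462, and 378 of the 473 genes called without batch 6 were among them. Without Green replicate 6 it was 5603, a fit in which Red replicate 6 alone stands for its batch.

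Set against the other 5 batches, batch 1 had 10 genes higher (0.0883%) and 9 lower (0.0795%). Batch 2 had 3 genes higher (0.0265%) and none lower (0.0%; limma, with 86 at an unadjusted p under 0.05, 0 by edgeR and 7 by DESeq2). Batch 3 had 10 higher (0.0883%) and 32 lower (0.283%), and batch 4 had 14 higher (0.124%) and 4 lower (0.0353%). Batch 5 had 7 higher (0.0618%) and 3 lower (0.0265%), and batch 6 had 38 higher (0.335%) and 55 lower (0.486%). C56E6.7 and F42A9.9 count as higher in each of batches 1 to 5, because both were nearly absent from batch 6. The 3 genes higher in batch 2 were these and cls-3. Without batch 6, each batch was set against the other 4. Batch 3 then had 106 genes higher (0.936%) and 428 lower (3.78%), and batch 5 had 74 higher (0.653%) and 194 lower (1.71%). Batch 4 had 70 higher (0.618%), col-17, dpy-13 and dpy-4 again among them, and 10 lower (0.0883%). Batch 1 had 26 higher (0.23%) and 34 lower (0.3%), and batch 2 had 7 higher (0.0618%) and 0 lower (0.0%; also 0 by edgeR). These comparisons share libraries and are not independent of one another. These counts rest on single libraries. Batch 3 had 42 calls in all, 0 without Green replicate 3, 1 without Red replicate 3 and 3 to 27 without any 1 of the libraries of batches 1, 2, 4 and 5. Batch 5 had 10 calls, 0 without either of its own libraries, 46 without Green replicate 1 and 4 without Green replicate 2. Batch 4 had 18 calls, 1 without Green replicate 4 and 3 without Red replicate 4, batch 1 had 19, with 9 without Green replicate 1 and 7 without Red replicate 1, and batch 2 had 3, with 0 without Green replicate 2. Batch 6 had 93 calls, 72 without Red replicate 6 and 45 to 61 without any 1 library of the other batches.

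**Figure D2:**
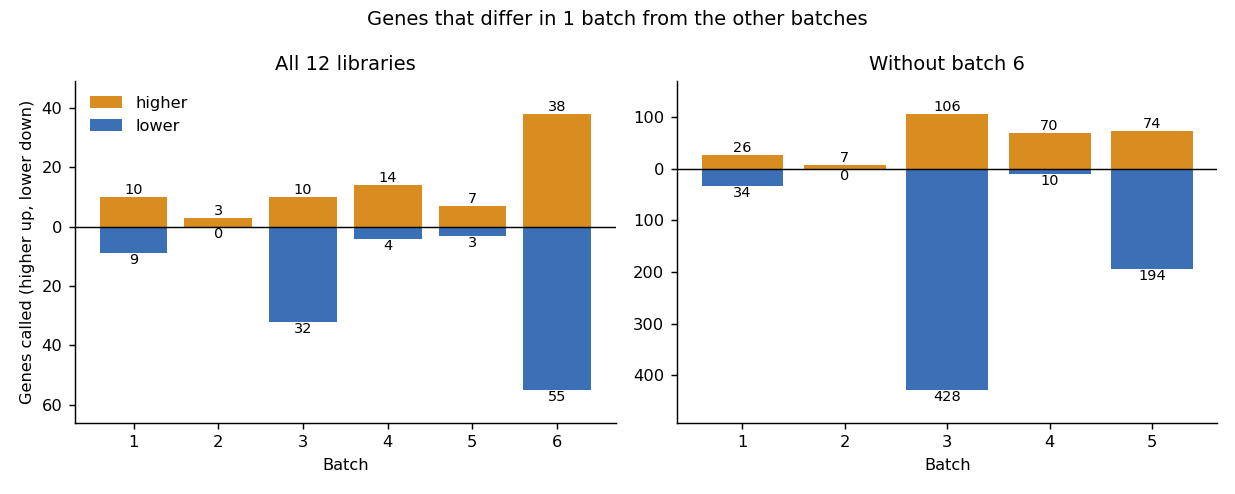
Number of genes called higher (orange, upward) and lower (blue, downward) in each batch against the other batches, with all 12 libraries (left) and without batch 6 (right); the vertical axes differ. With all libraries batch 6 has the most calls (38 higher, 55 lower), and without it batch 3 has 428 genes lower and batch 5 has 194.

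Among the 473 genes called without batch 6, batch 4 held the highest mean for 198 (41.9%, against 14.7% of all genes tested) and batch 3 the lowest for 205 (43.3%, against 24.2%). Batch 5 was lowest for 143 (30.2%, against 22.1%). Chromosome V carried 135 of the 473 genes (28.5%, against 18.5% of the genes tested), chromosome X carried 92 (19.5%, against 13.7%) and chromosome I carried 42 (8.9%, against 17%).

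Several single genes showed steps between batches, with both libraries of a batch on the same side. cls-3 (III, 9186558 to 9191109, build WBcel235), a member of the CLASP family of microtubule-binding proteins, had 1866 normalized counts in the Green library and 1718 in the Red in batch 1, and 1716 in Green and 1693 in Red in batch 4. It had 7176 in Green and 6215 in Red in batch 2, and 7133 in Green and 6124 in Red in batch 6, with batch 3 (3503 and 2817) and batch 5 (4404 and 4668) between them. Batches 1 and 4 were thus low and batches 2 and 6 high in both groups, with no overlap between the pairs. The log2 difference from the other 5 batches was -1.26 in batch 4 (SE 0.09, limma adjusted p = 0.00079) and 1.11 in batch 2 (SE 0.09, limma adjusted p = 0.0052), and the F test gave limma adjusted p = 6.2e-05.

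ugt-64 (V, 3503080 to 3506352), a UDP-glucuronosyltransferase of the family that conjugates small molecules, was low in batch 4 alone. It had 788 normalized counts in the Green library and 653 in the Red there, while the other 5 batches had 2424 to 3135 in Green and 1770 to 2321 in Red. The log2 difference was -1.71 (SE 0.09, limma adjusted p = 4.6e-05), and it stayed called under all 30 alternatives run for it. Of the 47 glucuronosyltransferase genes tested, 1 passed the F test with all libraries (2.13%, against 0.636% of all genes), ugt-64 itself, and 5 passed without batch 6 (10.6%, against 4.18%).

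A cluster on chromosome V between 16926922 and 16930063 was low in batches 1 and 5. The annotation lists Y102A5C.5 and Y102A5C.6 there as pseudogenes and Y102A5C.36 as protein-coding; Y102A5C.36 was added to the description after its values were seen. Y102A5C.5 had 38.7 normalized counts in the Green library and 45.6 in the Red in batch 1, 124 and 110 in batch 5, and 380 to 574 in Green and 322 to 468 in Red in the other batches. Y102A5C.6 had 144 in Green and 126 in Red in batch 1 and 429 and 352 in batch 5, against 949 to 1606 in Green and 861 to 1506 in Red elsewhere. Y102A5C.36 had 37.9 in Green and 37 in Red in batch 1 and 55.4 and 61.6 in batch 5, against 113 to 204 in Green and 121 to 338 in Red elsewhere. All 3 genes had their lowest Green and Red libraries in batch 1 and the next lowest in batch 5. The log2 differences of batch 1 were -2.92 for Y102A5C.5 (SE 0.16, limma adjusted p = 6.9e-05) and -2.79 for Y102A5C.6 (SE 0.18, limma adjusted p = 0.00018).

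Batch 1 was also low for a pair of neighbouring F-box genes, whose protein family recruits substrates to ubiquitin ligases. fbxa-192 (V, 17640672 to 17650527) had 65.3 normalized counts in the Green library and 64.1 in the Red in batch 1, against 166 to 389 in Green and 196 to 427 in Red in the other 5 (log2 difference -2.09, SE 0.16, limma adjusted p = 0.00043). fbxa-193, annotated as a pseudogene 2955 bases further on, had 35.4 in Green and 60.4 in Red, against 110 to 208 in Green and 64.8 to 238 in Red (log2 difference -1.82, SE 0.24, limma adjusted p = 0.02). edgeR did not call fbxa-193 in batch 1 (adjusted p = 0.053). These were the 2 F-box genes of 192 tested that passed the F test with all libraries (1.04%, against 0.636% of all genes). Without batch 6, 9 of 192 (4.69%) passed, a share near the 4.18% of all genes.

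fmo-2, a flavin-containing monooxygenase known for its induction by hypoxia and dietary restriction, had 1678 normalized counts in the Green library and 5068 in the Red in batch 5, the highest of each group. It had 201 in Green and 794 in Red in batch 1, the lowest of each group, and 411 to 831 in Green and 1837 to 4170 in Red in batches 2, 3, 4 and 6. The log2 difference was 1.59 in batch 5 (SE 0.14, limma adjusted p = 0.005) and -1.84 in batch 1 (SE 0.14, limma adjusted p = 0.00043). C55C3.3, on chromosome IV, was higher in batch 5, with 1356 in Green and 1325 in Red against 85.4 to 390 in Green and 82.6 to 213 in Red in the other 5 (log2 difference 3.03, SE 0.28, limma adjusted p = 0.005). F47B8.10 had 196 in Green and 708 in Red in batch 5, against 28.2 to 81.5 in Green and 151 to 359 in Red (log2 difference 1.67, SE 0.22, limma adjusted p = 0.034). The call for F47B8.10 was lost in 10 cases of leaving out libraries or batches and without the batch block. Leaving out either batch 5 library, or the batch block, also ended the batch 5 calls for fmo-2 and C55C3.3. In all 3 genes the batch 5 libraries lay above the other 5 libraries of their own group.

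**Figure D3:**
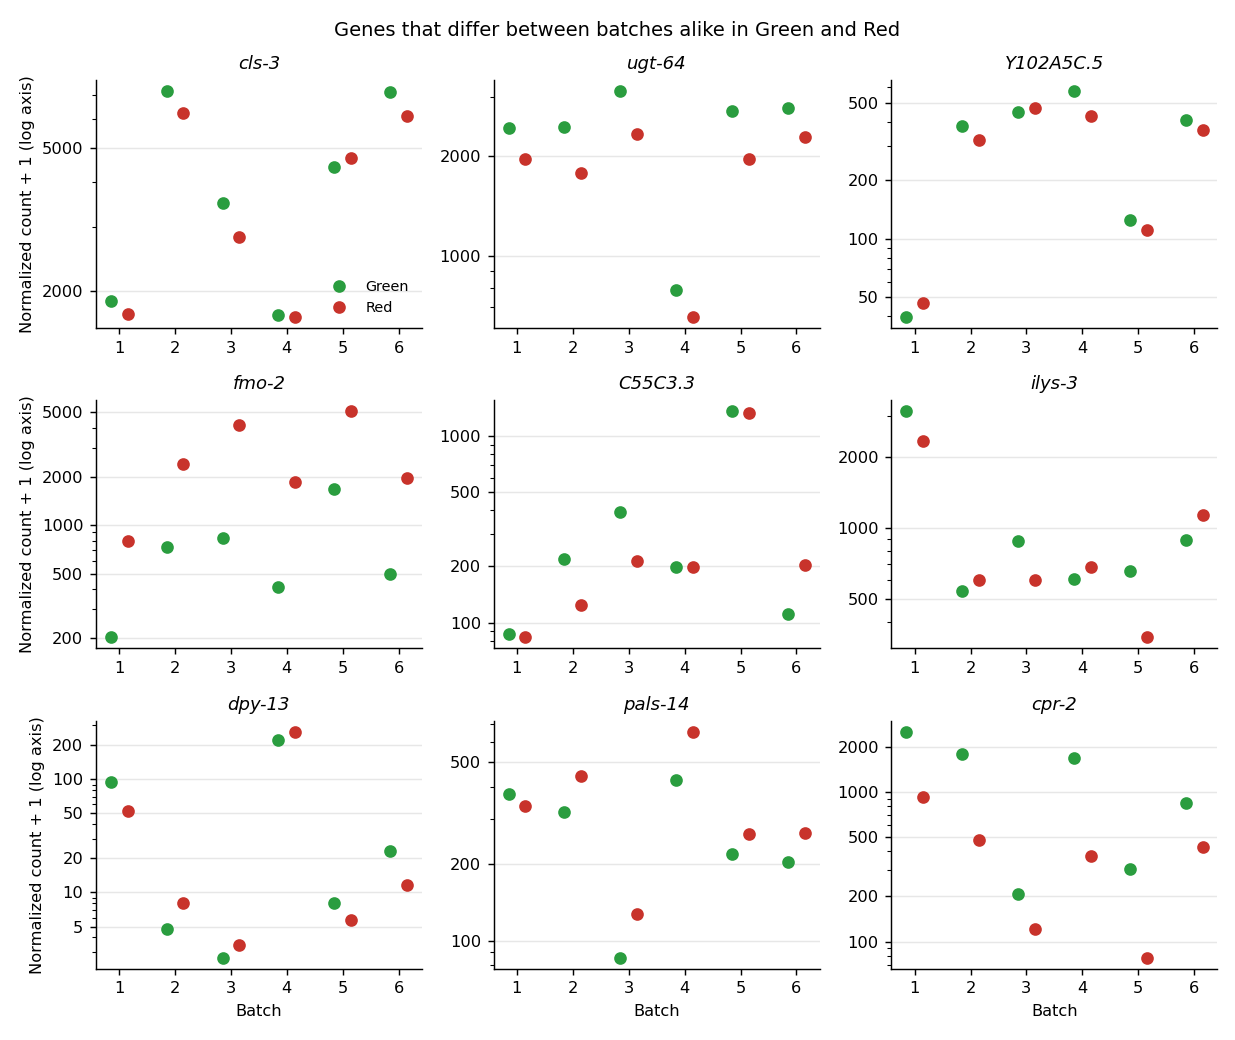
Normalized counts + 1 (log axis) of 9 genes in the Green (green points, left) and Red (red points, right) library of each batch. The points of a batch move together: cls-3 is low in batches 1 and 4, ugt-64 in batch 4 and Y102A5C.5 in batches 1 and 5, while fmo-2 and C55C3.3 are highest in batch 5 and ilys-3 in batch 1.

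A few genes were higher in batch 1 than in any other batch. ilys-3, an invertebrate-type lysozyme that acts against bacteria, had 3128 normalized counts in the Green library and 2345 in the Red, against 541 to 887 in Green and 343 to 1136 in Red in the other 5 batches (log2 difference 2.03, SE 0.22, limma adjusted p = 0.0042). thn-1, of the thaumatin family, had 1967 in Green and 677 in Red, against 199 to 503 in Green and 163 to 321 in Red (log2 difference 2.15, SE 0.21, limma adjusted p = 0.0023). C08F11.7 had 468 in Green and 435 in Red, against 57.7 to 79.9 in Green and 52.9 to 89.3 in Red (log2 difference 2.67, SE 0.21, limma adjusted p = 0.00044). In each of these genes both batch 1 libraries lay above all 5 others of their group. Leaving out either batch 1 library, or the batch block, ended the call for ilys-3. F42A10.7 was higher too, with 743 in Green and 154 in Red against 48.3 to 192 in Green and 28.8 to 74.7 in Red (limma adjusted p = 0.027), although leaving out single libraries or batches ended its call in 11 cases.

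cpr-2, a cathepsin B-like cysteine protease, was high in batch 1 and low in batches 3 and 5. It had 2517 normalized counts in the Green library and 929 in the Red in batch 1, 208 and 121 in batch 3, and 302 and 77.2 in batch 5, with the other batches between 841 and 1792 in Green and between 370 and 479 in Red. The log2 differences were 1.92 in batch 1 (SE 0.25, limma adjusted p = 0.015) and -2.06 in batch 5 (SE 0.25, limma adjusted p = 0.022). The batch 5 call was lost without the batch block and in 6 cases of leaving out libraries or batches, both batch 5 libraries among them. Among 20 genes of fatty acid synthesis and desaturation, 3 were lower in batch 1 (against 0.3% of all genes) and 2 higher in batch 5 (against 0.653%) when batch 6 was left out. By the F test 4 passed in that fit (against 4.18% of all genes) and 0 with all libraries (limma; 6 at an unadjusted p under 0.05, 0 by edgeR, 6 by DESeq2). elo-6, which elongates branched-chain fatty acids, had 1019 in Green and 668 in Red in batch 1, against 1483 to 1768 in Green and 1076 to 1399 in Red in batches 2 to 5 (log2 difference -0.78, limma adjusted p = 0.0013). The other two were elo-5, which fell by 0.75, and elo-2, which fell by 0.65 on the log2 scale; all 3 encode fatty acid elongases. Here and in what follows, list members named only with a value without batch 6 were for the most part chosen after their values were seen.

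Cuticle collagens differed between batches, and 3 of them were far higher in batch 4 than elsewhere. Those 3, col-17, dpy-13 and dpy-4, reached the mean of 50 only through batch 4: over the other 10 libraries they averaged 23.6, 20.6 and 19.1, so a high level in batch 4 is what let them be tested, and their calls and their part in the counts of collagens are descriptions. Of 58 collagens tested, 4 passed the F test with all libraries (6.9%, against 0.636% of all genes) and 15 without batch 6 (25.9%, against 4.18%). The 4 were col-107 and those 3, and the 15 hold those 3 as well. col-17 had 458 normalized counts in the Green library and 348 in the Red in batch 4 and 112 and 53 in batch 1, against 3.33 to 44.5 in Green and 0 to 6.29 in Red in the other batches (log2 difference of batch 4, 5.47, SE 0.58, limma adjusted p = 0.0063). dpy-13, a collagen needed for normal body shape, had 221 in Green and 262 in Red in batch 4 and 94.3 and 51.8 in batch 1, against 1.66 to 22.3 in Green and 2.42 to 10.7 in Red elsewhere (log2 difference 4.48, SE 0.40, limma adjusted p = 0.0019). dpy-4, another body-shape collagen, had 202 in Green and 263 in Red in batch 4 and 95.1 and 48.1 in batch 1, against 0 to 22.3 in Green and 3.12 to 7.06 in Red (log2 difference 4.79, SE 0.71, limma adjusted p = 0.038). In these 3 collagens batch 4 was highest and batch 1 second in both groups. Leaving out either batch 4 library ended the 3 calls, and that of dpy-4 was lost in 8 further cases of leaving out libraries or batches.

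Collagens were also lower in batch 3. With all libraries 5 of the 58 were lower in batch 3 and 3 higher in batch 4, against 0.283% and 0.124% of all genes. Those 3 are col-17, dpy-13 and dpy-4, which were tested only because of batch 4, and dpy-13 is also among the 5. Without batch 6, 14 were lower in batch 3 and 9 in batch 5, against 3.78% and 1.71% of all genes. Both counts hold col-17 and dpy-13. In that fit 6 were higher in batch 4, col-17, dpy-13 and dpy-4 among them, against 0.618% of all genes. In batch 1, 2 were higher, dpy-13 among them, against 0.23%. The batch 4 level of col-17, dpy-13 and dpy-4 also raises the mean that other batches are set against. col-107 had 16.6 normalized counts in the Green library and 29 in the Red in batch 3, against 51.9 to 134 in Green and 63.1 to 438 in Red in the other 5 (log2 difference -2.46, SE 0.34, limma adjusted p = 0.03). col-144 had 0 in Green and 16.9 in Red, against 68.9 to 168 in Green and 53 to 503 in Red (log2 difference -5.02, SE 0.70, limma adjusted p = 0.03). Both genes were lowest in batch 3 in each group, and edgeR did not call them there (adjusted p = 0.10 and 0.11). The median deviation of the 58 collagens was lowest in batch 5, at -0.59 in Green and -0.96 in Red, against -0.0 and -0.01 for all genes, and it was 0.71 in Red replicate 6 against 0.32 in Green replicate 6.

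Genes of moulting and the apical matrix had their lowest medians in batch 3 as well, at -0.48 in Green and -0.78 in Red. Without batch 6, 8 of 21 were lower in batch 3 (limma, against 3.78% of all genes), among them mlt-11, a protease inhibitor of the moult, which fell by 1.32 on the log2 scale, the apical matrix lipocalin lpr-3, which fell by 1.33, and the patched-related ptr-4, which fell by 1.27. nas-37, an astacin protease, was 0.47 higher in batch 5. By the F test over all batches 0 of 21 passed with or without batch 6, against 0.636% and 4.18% of all genes (limma; 11 and 13 at an unadjusted p under 0.05, 0 and 0 by edgeR, 8 by DESeq2 with all libraries). dyf-3, which acts in intraflagellar transport of sensory cilia, was higher in batch 3, with 1114 normalized counts in the Green library and 966 in the Red against 302 to 500 in Green and 226 to 699 in Red (log2 difference 1.47, SE 0.19, limma adjusted p = 0.027). The call for dyf-3 was lost under quantile normalization, without the batch block and in 10 cases of leaving out libraries or batches (adjusted p up to 0.48 over its alternatives). Of 13 listed cilia genes, a list that does not hold dyf-3, 0 passed the F test in either fit, against 0.636% and 4.18% of all genes (limma, with 0 and 3 at an unadjusted p under 0.05, and 0 by edgeR).

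Genes of the intracellular pathogen response, most of them pals genes, were lower in batch 3, and a few were higher in batch 4. Of 29 tested, 2 passed the F test with all libraries (6.9%, against 0.636% of all genes) and 14 without batch 6 (48.3%, against 4.18%). pals-14 had 84.9 normalized counts in the Green library and 126 in the Red in batch 3, against 202 to 425 in Green and 260 to 654 in Red in the other 5 batches, with the highest in batch 4 in both groups. Its log2 difference was -1.66 in batch 3 (SE 0.16, limma adjusted p = 0.0068) and 1.15 in batch 4 (SE 0.16, limma adjusted p = 0.033). pals-6 had 84.9 in Green and 76.2 in Red in batch 3, against 167 to 363 in Green and 95.6 to 347 in Red (log2 difference -1.44, SE 0.21, limma adjusted p = 0.038), and pals-33 had 137 in Green and 126 in Red, against 219 to 321 in Green and 178 to 381 in Red (log2 difference -1.01, SE 0.16, limma adjusted p = 0.043). All 3 genes had their lowest Green and lowest Red library in batch 3. edgeR with all libraries called pals-14 there (adjusted p = 0.024) and did not call pals-6 or pals-33 (0.082 for both). The calls for pals-6 and pals-33 were each lost in 13 cases of leaving out libraries or batches, and that for pals-33 under quantile normalization. Leaving out either batch 3 library ended the call for pals-14, and all 3 calls were lost without the batch block.

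With all libraries, 5 of the 29 genes were lower in batch 3 and 1 was higher in batch 4, against 0.283% and 0.124% of all genes. Without batch 6, 17 were lower in batch 3 and 4 were higher in batch 4, against 3.78% and 0.618% of all genes. None was called in the opposite direction in those batches. Among the 17 were pals-5, widely used as a reporter of this response, which fell by 1.62 on the log2 scale, and eol-1, which fell by 1.15. The median deviation of the list was -0.66 in Green and -0.52 in Red in batch 3 and 0.24 in Green and 0.72 in Red in batch 4. In batch 6 the groups parted, with -0.12 in Green and -0.66 in Red. The list shares fbxa-158 and fbxa-182 with the F-box list, so those genes count in both.

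Members of the immune and intestinal lists were lower in batch 5 when batch 6 was left out. Immune effectors here are lysozymes, saposin-like proteins and infection-induced genes. Of 39 tested, 2 passed the F test with all libraries (5.13%, against 0.636% of all genes) and 18 without batch 6 (46.2%, against 4.18%). Of these 39, without batch 6, 13 were lower in batch 5 and 5 in batch 3 (against 1.71% and 3.78% of all genes). In that fit 2 were higher in batch 3 (against 0.936%) and 2 in batch 1 (against 0.23%). Batch 2 had 1 higher (against 0.0618%). Batch 4 had 1 higher, spp-14 (against 0.618%), and 1 lower, dod-23 (against 0.0883%). In batch 5 the lysozymes lys-1 and lys-2 fell by 0.83 and 1.14 on the log2 scale and the saposin-like spp-9 by 1.28. With all libraries 0 of the 39 were called in batch 5 (limma; 0.0618% of all genes were higher there and 0.0265% lower). In batch 1, 1 was higher, ilys-3 (against 0.0883%). clec-60, a C-type lectin induced by bacterial infection, passed the F test (limma adjusted p = 0.044). It had 298 normalized counts in the Green library and 178 in the Red in batch 4, and 124 in Green and 65.5 in Red in batch 5. The median deviation of the immune effectors was -0.32 in Green and -0.28 in Red in batch 5 and 0.28 in Green and 0.20 in Red in batch 4. Of 58 C-type lectins, 1 passed with all libraries (1.72%, against 0.636% of all genes), which is clec-60 again, since that gene is in both lists. Without batch 6, 10 passed (17.2%, against 4.18%), and set against the other 4 batches 6 of the 58 were lower in batch 5 (against 1.71%) and 5 in batch 3 (against 3.78%).

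Of 28 intestine genes, 2 passed the F test with all libraries (7.14%, against 0.636% of all genes) and 10 without batch 6 (35.7%, against 4.18%). Without batch 6, 6 were lower in batch 5 (against 1.71% of all genes), all of them digestive proteases: asp-1, asp-2, asp-3 and asp-5 encode aspartyl proteases and cpr-4 and cpr-5 cathepsin B-like proteases, and they fell by 0.49 to 1.12 on the log2 scale. Other members were lower in batch 3 or higher in batch 4. Without batch 6, act-5, ifb-2, cpr-3 and cpr-4 were lower in batch 3 (4 of 28, against 3.78% of all genes), and 5 were higher in batch 4 (against 0.618%), asp-1 and cpr-4 among them. With all libraries 2 were called, both lower in batch 3 (against 0.283% of all genes): act-5 and cpr-3. cpr-3, a cathepsin B-like protease, had 1169 normalized counts in its Green library and 1180 in its Red in batch 3, the lowest of each group (log2 difference -0.71, SE 0.10, limma adjusted p = 0.038; -0.80 without batch 6). act-5, the actin of the intestinal microvilli, had 2639 normalized counts in the Green library and 4357 in the Red in batch 3, the lowest of each group, against 3428 to 4821 in Green and 5077 to 7129 in Red (log2 difference -0.55, SE 0.09, limma adjusted p = 0.043). This small difference was lost with edgeR (adjusted p = 0.059) and in 14 cases of leaving out libraries or batches. ifb-2, an intermediate filament of the terminal web, had 1705 in Green and 2481 in Red in batch 4, the highest of each group, and 946 in Green and 1142 in Red in batch 3, the lowest (limma F test adjusted p = 0.041). The median deviation of the 28 genes was 0.34 in Green and 0.31 in Red in batch 4 and -0.14 in Green and -0.25 in Red in batch 5.

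dod-3, a gene found downstream of the insulin-signalling factor DAF-16, had 44.8 normalized counts in the Green library and 11.7 in the Red in batch 5, against 161 to 346 in Green and 25.4 to 75.2 in Red (log2 difference -2.10, SE 0.29, limma adjusted p = 0.036). It was lowest in batch 5 in both groups, but 17 of 29 alternatives, edgeR among them (adjusted p = 0.082), ended the call. Of the 9 DAF-16 class I targets tested, 4 (44.4%, against 4.18% of all genes) passed the F test without batch 6 and 0 with all libraries (limma; 5 at an unadjusted p under 0.05, 0 by edgeR, 5 by DESeq2). With all libraries dod-3 was the 1 lower in batch 5 (against 0.0265% of all genes), and dod-6 was higher in batch 6 (against 0.335%). Set against the other 4 batches, 4 were lower in batch 5 (against 1.71% of all genes): dod-3, lys-7 and the catalases ctl-1 and ctl-2, of which lys-7 is also an immune effector and the catalases also belong to the oxidative stress list. The metal-response genes mtl-2, a metallothionein, and ftn-1, a ferritin, had log2 differences of -0.61 (limma adjusted p = 0.01) and -1.06 (limma adjusted p = 0.01) in batch 5 without batch 6. ftn-1 had 301 in Green and 184 in Red in batch 5, the lowest of each group, and 898 in Green and 653 in Red in batch 1, the highest.

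Yolk protein genes, expressed in the intestine, had 2 of 6 past the limma F test without batch 6 (33.3%, against 4.18% of all genes). With all libraries 0 passed by limma, with 4 at an unadjusted p under 0.05, 0 by edgeR and 2 by DESeq2. vit-1 had 11365 normalized counts in the Green library and 1541 in the Red in batch 5, the lowest of each group, against 12332 to 21253 in Green and 3615 to 5250 in Red (log2 difference without batch 6, -1.06, limma adjusted p = 0.021), and vit-5 fell by 0.81 on the log2 scale. The yolk genes share much sequence, so reads could be split between them. Their median deviation in batch 5 was -0.56 in Green and -0.86 in Red.

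Body-wall muscle genes were lower in batch 5 too. Without batch 6, 11 of 36 were lower in that batch (against 1.71% of all genes). In that fit 1 was lower in batch 3 (against 3.78%) and 1 was higher in batch 4 (against 0.618%). With all libraries 0 of 36 were called in batch 5 (limma). By the F test 3 of 36 passed without batch 6 (8.33%, against 4.18% of all genes) and 0 with all libraries (limma; 20 at an unadjusted p under 0.05, 0 by edgeR, 13 by DESeq2). unc-54, the major body-wall myosin heavy chain, had 17444 normalized counts in the Green library and 12781 in the Red in batch 5, against 21871 to 31523 in Green and 15085 to 23780 in Red (log2 difference without batch 6, -0.58, limma adjusted p = 0.01). Both batch 5 libraries were the lowest of their group. The paramyosin gene unc-15 fell by 0.96, the myosin gene myo-3 by 0.90 and the troponin gene tnt-2 by 1.14 on the log2 scale. The median deviation of the list was -0.30 in Green and -0.35 in Red in batch 5.

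**Figure D4:**
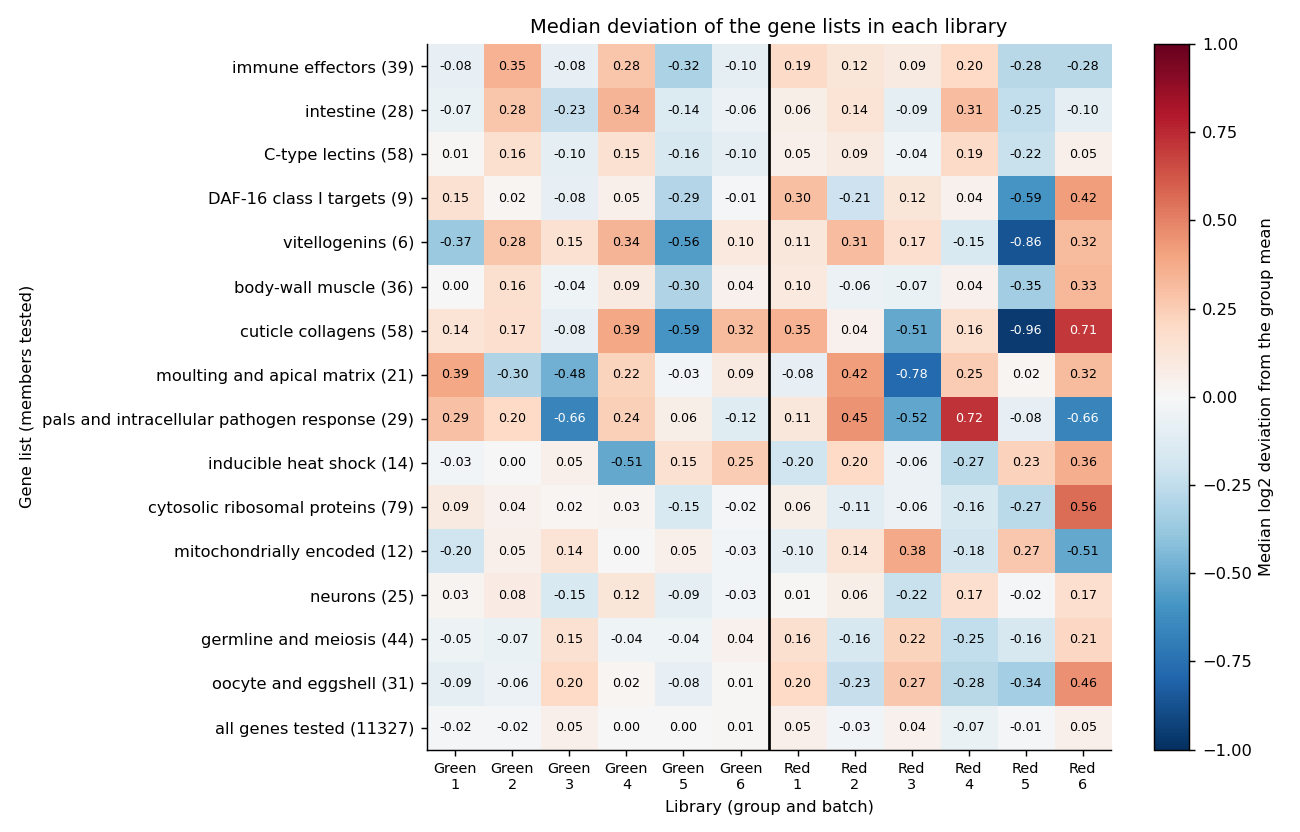
Median log2 deviation from the group mean of 15 gene lists and of all genes tested, in the 6 Green libraries (left) and the 6 Red libraries (right); the number of members tested is in brackets. In batch 5 the immune, intestine, collagen, muscle, yolk, C-type lectin, DAF-16, ribosomal, neuron, germline and oocyte lists are below 0 in both groups. In batch 3 the pals, moulting, collagen, intestine, C-type lectin, muscle and neuron lists are below 0 in both groups. Red replicate 6 parts from Green replicate 6 in the ribosomal, mitochondrial and pals lists.

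Some heat-shock genes were lower in batch 4 and some higher in batch 5. hsp-70, an inducible chaperone, had 696 normalized counts in the Green library and 1174 in the Red in batch 4, the lowest of each group, against 1066 to 1441 in Green and 1501 to 2594 in Red (log2 difference -0.87, SE 0.13, limma adjusted p = 0.04). That call was lost under quantile normalization, without the batch block and in 11 cases of leaving out libraries or batches. Of 14 inducible heat-shock genes, 1 passed the F test with all libraries (7.14%, against 0.636% of all genes) and 5 without batch 6 (35.7%, against 4.18%). The 1 with all libraries was hsp-16.11, which was called in batch 6 and not in batches 4 or 5. hsp-70 did not pass that test (limma F test adjusted p = 0.066). Without batch 6, hsp-70 and the small heat-shock gene hsp-16.1 were lower in batch 4 (against 0.0883% of all genes). In that fit hsp-16.1, hsp-16.41 and hsp-16.48 were higher in batch 5 (against 0.653%), by 0.77, 0.96 and 1.48 on the log2 scale. The list median in batch 4 was -0.51 in Green and -0.27 in Red.

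Several lists varied between batches with small steps or in 1 group. Of 12 genes encoded in mitochondria, 3 passed the F test without batch 6 (against 4.18% of all genes) and 0 with all libraries (limma; 4 at an unadjusted p under 0.05, 0 by edgeR, 4 by DESeq2). With all libraries nduo-5 was lower in batch 6, against 0.486% of all genes. It had 9329 normalized counts in its Green library and 8044 in its Red, the lowest of each group (log2 difference -0.59, SE 0.09, limma adjusted p = 0.02). Without batch 6, set against the other 4 batches, nduo-6, ndfl-4 and nduo-1 were higher in batch 3 by 0.30 to 0.40 on the log2 scale (against 0.936% of all genes). In batch 1, ctb-1 and ctc-1 had differences of -0.60 and -0.54 (against 0.3% of all genes lower there). The 79 cytosolic ribosomal protein genes had 6 members lower in batch 5 without batch 6 (against 1.71% of all genes), with log2 differences of -0.31 to -0.38, and a median deviation of -0.15 in Green and -0.27 in Red in that batch. In batch 6 their median was -0.02 in Green and 0.56 in Red. With all libraries 2 members, rps-25 and rpl-37, were called higher there, against 0.335% of all genes. rpl-37 averaged 30 over the 10 libraries of the other batches, so its level in batch 6 is what let it be tested. rps-25 had 49912 normalized counts in its Green library and 66886 in its Red in batch 6, the highest of each group (log2 difference 0.96, SE 0.14, limma adjusted p = 0.014). Histone genes likewise had a median of 0.14 in Green replicate 6 and 0.89 in Red replicate 6.

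Germline, oocyte and neuronal genes gave no calls by the limma F test. By the F test 0 of 44 germline, 0 of 31 oocyte and eggshell and 0 of 25 neuronal genes passed, with and without batch 6 (limma). Of all genes 0.636% passed with all libraries and 4.18% without batch 6, shares at which lists of this size would hold few calls or none. With all libraries 6, 0 and 2 of the listed genes had an unadjusted p under 0.05, edgeR called none and DESeq2 called 2, 1 and 0. Without batch 6, 28, 22 and 12 had an unadjusted p under 0.05 and edgeR called 0, 1 and 0; these are 63.6%, 71% and 48% of the lists, against 30.6% of all genes. Single batches set against the other 4 without batch 6 gave 1 germline and 1 neuronal call, both in batch 3. fbf-1 was higher there (log2 difference 0.44, limma adjusted p = 0.048, against 0.936% of all genes). unc-86 was lower (log2 difference -0.98, limma adjusted p = 0.042, against 3.78% of all genes). Oocyte genes had medians of 0.20 in Green and 0.27 in Red in batch 3 and -0.08 in Green and -0.34 in Red in batch 5. Of 32 genes of the core spliceosome and SR proteins, 0 passed in either fit, against 0.636% and 4.18% of all genes (limma; 3 and 5 at an unadjusted p under 0.05, 0 by edgeR, 3 by DESeq2 with all libraries). ret-1, the gene from which the reporter was built, had 33093, 35377 and 38496 normalized counts (lowest, median and highest) in Green and 26449, 33280 and 42359 in Red, with limma F test adjusted p = 0.56 over the batches and 0.18 without batch 6. sfa-1, a splicing factor, had 6629, 6863 and 7323 in Green and 7187, 7765 and 10611 in Red (limma F test adjusted p = 0.43 and 0.57).

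Batch 6 differed from the rest in a set of genes that were present in every other library and nearly absent from both of its own. C56E6.7 (II, 6516576 to 6516857) had 7.06 normalized counts in the Green library and 3.14 in the Red in batch 6, against 976 to 1144 in Green and 750 to 965 in Red in the other 5 (log2 difference -7.36, SE 0.16, limma adjusted p = 7e-09). F42A9.9 (IV, 8637923 to 8638861) had 13.6 in Green and 9.43 in Red, against 1175 to 1465 in Green and 916 to 1148 in Red (log2 difference -6.53, SE 0.12, limma adjusted p = 2.4e-09). These genes were also called higher in batches 1 to 5 with all libraries, because batch 6 was then among the others, and neither passed the F test without batch 6 (limma adjusted p = 0.35 and 0.27). T06A1.6, annotated as a pseudogene, had no reads in either library of batch 6; taking 3 reads per library as the limit of detection, it was at least 33-fold lower in Green and at least 35.3-fold lower in Red than the mean of the other 5, 53.7 ± 7.64 in the Green libraries and 66.6 ± 11.7 in the Red (SD, n = 5 each). W09B6.5 had 1 read in Green and 2 in Red, against 118 ± 12.5 normalized counts in the other Green libraries and 104 ± 17.3 in the other Red (SD, n = 5 each).

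Further genes showed the same pattern. glb-26, a globin gene, had 21.2 normalized counts in the Green library and 12.6 in the Red in batch 6, against 426 to 574 in Green and 493 to 693 in Red (log2 difference -4.94, SE 0.19, limma adjusted p = 9e-07). W06A7.4 had 254 in Green and 39.6 in Red, against 2086 to 2547 in Green and 2128 to 2557 in Red (log2 difference -4.52, SE 0.43, limma adjusted p = 0.00061). F53E4.2, K04G2.4, K03H1.13, ZK637.12 and R10E8.4 differed by -3.44 to -5.05 on this scale, with both batch 6 libraries below the other 5 of their group. T25F10.1 had 3 reads in Green and 0 in Red, against 112 ± 35.9 normalized counts in the other Green libraries and 38.3 ± 16.4 in the other Red (SD, n = 5 each). Each of these calls stayed under all alternatives that gave a value.

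Many of these genes overlap another gene on the opposite strand, a property looked at after their values were seen. Of the 22 genes called lower in batch 6 by more than 2 on the log2 scale, 21 are in the annotation and 15 of those (71.4%) share exon bases with an opposite-strand gene. The share was 25.6% over all annotated genes tested, 24.2% over the 33 genes lower by 2 or less and 16.2% over the 37 annotated genes called higher. Some of the strongest losses are not among the 15: C56E6.7 (log2 difference -7.36), F42A9.9 (-6.53), T06A1.6 (-5.91) and ZK637.12 (-4.59). W09B6.5 (-5.89) is not in the annotation. The 15 opposite-strand genes themselves differed in batch 6 by -0.72 to 0.64 on the log2 scale (median 0.11) and 0 of them were called there (limma; the lowest adjusted p was 0.11). W06A7.4 (V, 14824424 to 14829231) overlaps ret-1 (V, 14829177 to 14847413), which differed by 0.16 in batch 6 (limma adjusted p = 0.40). The library kit keeps strand, per the labels' protocols; how counting used strand is not given in the sources used here, and its part in the result was not tested.

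**Figure D5:**
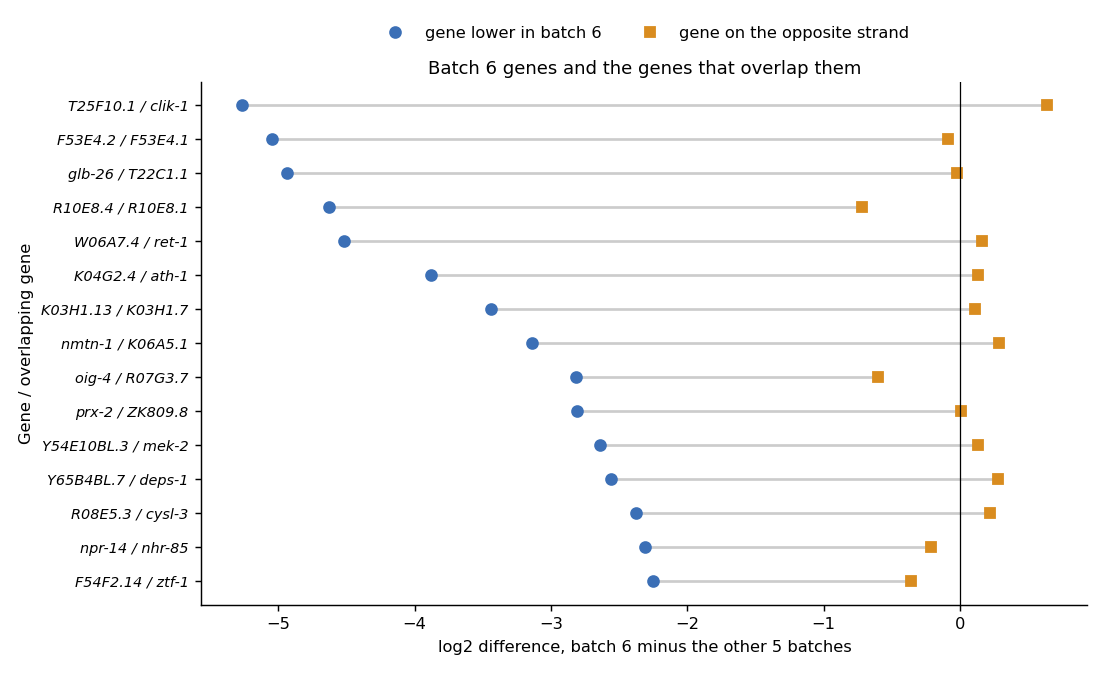
Log2 difference of batch 6 from the other 5 batches for the 15 genes lower by more than 2 that overlap an opposite-strand gene (blue circles) and for that overlapping gene (orange squares). The circles run from -2.25 to -5.27, the last with no read in Red replicate 6, and the squares from -0.72 to 0.64.

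Other genes were higher in batch 6. Among the 38 so called, rpl-37 averaged 30 over the 10 libraries of the other batches and was tested only because of its level in batch 6. rpl-37 (III, 3528642 to 3528917), a protein of the large ribosomal subunit, had 2571 normalized counts in the Green library and 3021 in the Red, against 19.5 to 51.6 in Green and 23 to 30.8 in Red (log2 difference 6.54, SE 0.24, limma adjusted p = 7.3e-07). hsp-16.11, a small heat-shock gene, had 1490 in Green and 1885 in Red, against 4.87 to 36.6 in Green and 41.9 to 139 in Red (log2 difference 5.13, SE 0.60, limma adjusted p = 0.0031). Its near-identical copy hsp-16.1, named after its values were seen, had 874 in Green and 0 in Red in batch 6, against 932 to 2219 in Green and 2370 to 5973 in Red. The sum of both copies in batch 6 was 2364 in Green, above the 937 to 2252 of the other Green libraries. In Red it was 1885, below the 2412 to 6112 of the other Red libraries. How reads were divided between the copies was not tested. F09E5.9, annotated as a pseudogene, had 450 in Green and 381 in Red, against 57.2 to 89.4 in Green and 76.2 to 103 in Red (log2 difference 2.39, SE 0.21, limma adjusted p = 0.00038). The calls for hsp-16.11 and F09E5.9 were lost with array quality weights, which gave both batch 6 libraries a weight of 0.148. In this fit the Green and Red libraries of a batch always get the same weight. The weights thus cannot tell which library of batch 6 stands apart.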

How the data were processed

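Polyadenylated RNA of whole worms was sequenced after miRNeasy extraction and a Kapa stranded mRNA HyperPrep kit with 300 ng of RNA, per the labels' protocols. The authors deposited 1 table of signal values: counts per gene divided by a size factor for each library. FastQC 0.11.8, STAR, MultiQC, Salmon 0.14.2, DESeq2 and build WBcel235 are named in the submitters' processing notes; how counts were made and whether strand was used is not given in the sources used here.

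All 12 columns were matched to libraries by name. Genes with a mean of at least 50 were kept, and log2(value + 1) was fitted with group and batch in limma 3.58.1 (R 4.3.3); each batch was set against the mean of the other 5, with adjusted p over all 11327 genes at 0.05. Fold changes on this scale understate those of low genes. Batch served as the pairing of Green and Red, since the labels give it as a shared number; 11 of 12 libraries correlated best with their own batch. Reads recovered from the values were whole within 0.001, with the limit that the size factor of Red replicate 2 is close to 1, so that recovery could not be told from rounding there; they served edgeR 4.0.16 and DESeq2 1.42.0 as alternatives. Positions are from Ensembl release 115, and tables and figures were made with Python 3.11.15. The fits were checked on simulated data.

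Batches, members and gene lists were chosen with earlier results of these data known. Genes were named by rule: the 20 with the largest SD of batch means past the F test, 3 per batch and direction outside both groups' ranges, 3 per list by smallest p, and ret-1 and sfa-1. Of 181 genes so named, a part is described. Other list members, such as elo-5, nas-37, pals-5 and eol-1, were named after their values were seen. Alternatives covered filters, pseudocounts, normalization, weights, tools, the batch block and leaving out libraries or batches.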

Additional observations from a re-analysis of the deposited data

Results flagged for a closer look

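In 42 of 112 groups of 6 libraries, for 56 genes named in the report, 1 library lay far from the other 5: the gap to its neighbour, divided by the whole range, was above Dixon's 95% critical value. Chance flags about 1 in 20 groups, and many of these genes were chosen for a batch that differs, so the number is a description.

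Batch 6 was the outlying library in 31 of them. Its Green and Red libraries were both lowest, with gap shares of 0.97 in Green and 0.95 in Red for C56E6.7, 0.95 in both for F42A9.9, 0.94 and 0.93 for F53E4.2, 0.94 and 0.90 for W09B6.5, 0.93 and 0.89 for T06A1.6 and 0.91 in both for glb-26. They were 0.91 in Green and 0.96 in Red for W06A7.4, 0.94 and 0.86 for ZK637.12, 0.82 and 0.90 for K04G2.4, 0.81 and 0.89 for K03H1.13, 0.77 and 0.74 for T25F10.1 and 0.72 and 0.75 for R10E8.4. Both were highest for rpl-37 (0.80 in Green, 0.94 in Red), F09E5.9 (0.78 in Green, 0.81 in Red) and hsp-16.11 (0.66 in Green, 0.69 in Red). For hsp-16.1 the lowest Red library was that of batch 6 (0.89).

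In other batches, both libraries stood apart for C08F11.7, highest in batch 1 (0.85 in Green, 0.75 in Red), and ugt-64, lowest in batch 4 (0.81 in Green, 0.79 in Red). In 1 group, ilys-3 was highest in Green in batch 1 (0.72), and elo-6 (0.68) and fbxa-193 (0.64) were lowest in Green in batch 1. col-144 was lowest in Green in batch 3 (0.83) and dod-3 in Green in batch 5 (0.63), C55C3.3 was highest in Red in batch 5 (0.66) and vit-1 lowest in Red in batch 5 (0.70).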

How the results depend on the processing

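The 72 genes of the F test became 35 with a mean of at least 200, 955 with array quality weights, 1013 with DESeq2 and, without 1 library, 38 to 5603; without batch 3, 4 or 6 they were 43, 41 and 473. The 9 of 53 lists with a called member became 5 to 53 without 1 library or batch (26 without Red replicate 6, 28 without batch 6). Without 1 library, batch 1 (19) had 7 to 135 calls, batch 2 (3) 0 to 129, batch 3 (42) 0 to 1849, batch 4 (18) 1 to 609, batch 5 (10) 0 to 1792 and batch 6 (93) 45 to 5944; the highest came without Green replicate 6. edgeR gave 13, 41 and 169 for batches 3, 4 and 6. DESeq2 gave 82, 42, 211, 141, 208 and 1246 for batches 1 to 6. Array quality weights gave 54, 548, 81, 789 and 22 for batches 2 to 6. Batch 3 had 25 with a mean of at least 200 and 19 after quantile normalization, and batch 4 had 35 with a mean of at least 10 and 29 with no filter. Without the batch as a block (the pairing of Green and Red), batches 1 to 6 had 1, 0, 0, 2, 0 and 303 calls. edgeR without batch 6, chosen after seeing the data, gave 439 by the F test and 63, 11, 267, 169 and 237 for batches 1 to 5. The cause was not tested.

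Of 1643 values of 56 named genes under alternatives, 1364 kept direction and side of the threshold, 214 lost the call, 65 gained one and 0 reversed. Of 43 genes called in their batch, 15 kept the call under every alternative, 36 were also called by edgeR and 26 lost it without the block. With 2 libraries a batch, 1 library decides many calls.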
